A study of Hordeum vulgare with 12 samples.

Results

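In barley inflorescences, 171 of 29014 measured genes met 4 conditions for a peak in wild-type (WT) spikes at the earlier of the sampled stages, W2.0. Their group means were lower in the mutant at both stages and in WT at the later stage. The genes were chosen on the deposited values themselves, after log2(FPKM + 1). A member had to be at least 1 lower in WT W3.5 spikes than in WT W2.0 spikes, and at least 1 lower in mutant W2.0 spikes than in WT W2.0 spikes. Mutant spikes at W3.5 also had to lie within 1 of mutant W2.0 spikes and within 1 of WT W3.5 spikes. All expression values of these genes are therefore given as descriptions with no test. FPKM is a read count scaled by gene length and by the depth of the library. They made up 0.883% of the 19367 genes that reached 1 FPKM in at least 1 group.

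The study compared spikes of a mutant and of WT plants, both in the spring cultivar Golden Promise, under normal growth conditions. The 4 groups were mutant W3.5 spikes, mutant W2.0 spikes, WT W3.5 spikes and WT W2.0 spikes, each with 3 libraries from separate biological replicates. Each replicate pooled 15 to 20 spikes, so plants within a replicate cannot be told apart, and in such bulk tissue fewer cells of a type and less RNA per cell cannot be told apart either. The mutated gene and its allele are not named in the labels, which give the genotype as mutant, and the series title speaks of FASCIATED EAR genes. The sample labels give the later stage as W3.5, although the design text of the series names W3.0. Plant age was not given in the labels.

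The letter W stands for the Waddington scale, which stages the barley spike by the form of its tip and of its floral organs. At W2.0, the double ridge stage, spikelet ridges first become visible on the flank of the inflorescence meristem. By about W3.5 the spikelets have begun to form floral organs, with stamen primordia visible. In maize, FASCIATED EAR genes act in the control of inflorescence meristem size, several of them as parts of CLAVATA signalling, in which small secreted peptides and leucine-rich repeat receptors restrict the pool of stem cells. The loss of such a gene in maize gives broadened, flattened ears.

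The genes are known here only by their identifiers. None of the 171 identifiers matched the reference gene table used here, so no name, product or function is given for any of them, and the tissue could not be checked against marker genes. The characters before r1G in an identifier give the chromosome, as in HORVU7Hr1G087690 on chromosome 7H, and the number after it runs along the chromosome.

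Most members were low outside their peak, though not all: 25 members in mutant W3.5 spikes, 26 in mutant W2.0 spikes and 25 in WT W3.5 spikes were at 10 FPKM or more. Over the 171 genes, the median group mean was 0.640 FPKM in mutant W3.5 spikes, 0.835 FPKM in mutant W2.0 spikes, 0.275 FPKM in WT W3.5 spikes and 5.62 FPKM in WT W2.0 spikes. In mutant W3.5 spikes, 102 genes were under 1 FPKM and 18 were listed at 0. In mutant W2.0 spikes, 93 genes were under 1 FPKM and 7 were listed at 0. In WT W3.5 spikes, 117 genes were under 1 FPKM and 25 were listed at 0. The peak itself covered a wide range of levels, with group means in WT W2.0 spikes between 1.12 and 1915 FPKM. In that group 52 genes reached 10 FPKM and 13 reached 100 FPKM.

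**Figure D1:**
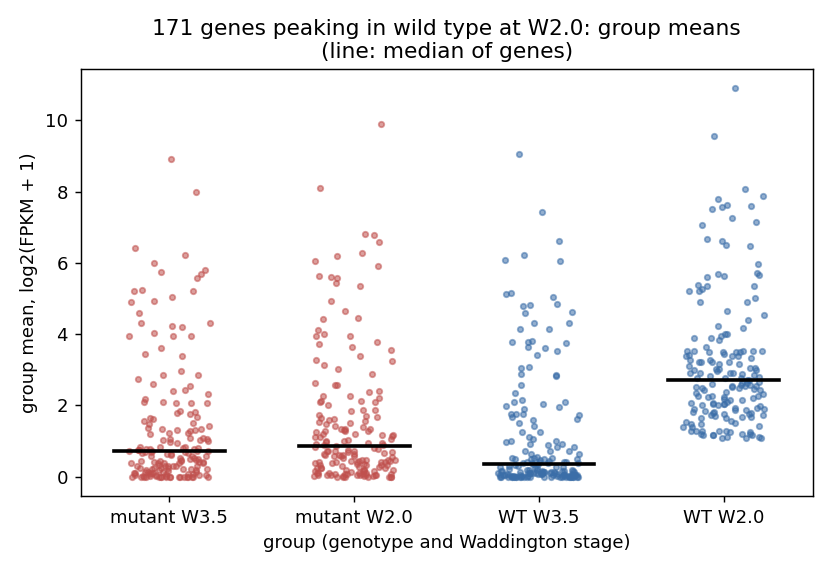
Group mean of each of the 171 genes on the log2(FPKM + 1) scale (y axis) in mutant spikes (red) and WT spikes (blue), each at W3.5 and W2.0. Each point is 1 gene and each black line the median over genes; on the linear scale the medians are 0.640, 0.835, 0.275 and 5.62 FPKM from left to right, and the peak in WT W2.0 is what the choice of genes fixed.

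The difference between WT W3.5 spikes and WT W2.0 spikes had a median of -1.90 on the log2(FPKM + 1) scale over the members, against 0.06 over all genes at 1 FPKM or more. The difference between mutant and WT W2.0 spikes had a median of -1.49 over the members, against 0.02 over all genes. Both sizes were set by the choice of genes. Among all genes at 1 FPKM or more, 4.07% were lower by at least 1 in WT W3.5 spikes than at W2.0, and 1.9% were lower by at least 1 in mutant W2.0 spikes than in WT W2.0 spikes, with 2.56% higher by that much. Both drops together were met by 269 genes, or 1.39%. The lesser of the 2 drops, called the smaller drop here, had a median of 1.48 over the members, reached 2 in 36 genes and reached 3 in 3 genes.

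Inside the limits that the choice left, members differed slightly in the other comparisons. Mutant W3.5 spikes were above mutant W2.0 spikes for 59 members (34.5%) and below them for 108. Of all genes at 1 FPKM or more, 46.7% were higher in mutant W3.5 than in mutant W2.0 spikes. The median difference was -0.09 over the members, against -0.02 over all genes. At W3.5, the mutant was above WT for 120 members (70.2%) and below WT for 43, with a median of 0.18. Over all genes at 1 FPKM or more, the mutant was above WT at that stage for 42.3%, with a median of -0.04. Over all genes at 1 FPKM or more, mutant W3.5 spikes were lower than WT W3.5 spikes by at least 1 for 0.805% and higher for 2%, and lower than mutant W2.0 spikes by at least 1 for 2.46% and higher for 0.733%. The conditions bound both differences to less than 1 in size. WT W3.5 and mutant W2.0 spikes entered the choice by being low, so neither share of members is independent of it.

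The 3 members with the largest smaller drop were under 1 FPKM in every group but WT W2.0. HORVU5Hr1G084170 was listed at 0 in mutant W3.5 spikes, in mutant W2.0 spikes and in WT W3.5 spikes, against 10.4 FPKM in WT W2.0 spikes. HORVU1Hr1G052430 had 0.484, 0.268 and 0.240 FPKM in the same 3 groups, against 10.3 FPKM in WT W2.0 spikes. HORVU6Hr1G087220 had 0.176, 0.993 and 0.275 FPKM, against 15.0 FPKM in WT W2.0 spikes. These were the members with a smaller drop of at least 3. Of the 12 that followed them in this order, HORVU2Hr1G067750, HORVU5Hr1G048000 and HORVU3Hr1G031550 each had between 10.4 and 10.6 FPKM in WT W2.0 spikes and under 1 FPKM in each other group. HORVU3Hr1G088270 had 7.06 FPKM in WT W2.0 spikes, and its highest other group mean was 1.048 FPKM in mutant W3.5 spikes. HORVU2Hr1G068790 and HORVU2Hr1G107100 had 1.26 and 1.83 FPKM in mutant W2.0 spikes, against 14.5 and 17.8 FPKM in WT W2.0 spikes. The rank also held genes with a clear level in all groups. HORVU1Hr1G061160 had 4.34 FPKM in mutant W3.5 spikes, 4.94 FPKM in mutant W2.0 spikes and 4.92 FPKM in WT W3.5 spikes, against 39.6 FPKM in WT W2.0 spikes. Values of single libraries could not be had for any gene named in this paragraph. Whether 1 library carried their peaks is therefore unknown.

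Among the 8 members with the highest level in WT W2.0 spikes, the smaller drop ranged from 1.01 to 2.70. HORVU5Hr1G047730 had 481 FPKM in mutant W3.5 spikes, 943 FPKM in mutant W2.0 spikes and 528 FPKM in WT W3.5 spikes, against 1915 FPKM in WT W2.0 spikes, and its smaller drop was 1.021. HORVU3Hr1G093350 had 254, 274 and 171 FPKM in those 3 groups, against 752 FPKM in WT W2.0 spikes. HORVU4Hr1G060720 was among both the 8 highest members and the 15 with the largest smaller drop, with 32.1, 29.4 and 26.7 FPKM against 197 FPKM in WT W2.0 spikes. The other 5 of the 8 highest members were HORVU7Hr1G115540, HORVU7Hr1G098330, HORVU2Hr1G093670, HORVU3Hr1G095070 and HORVU0Hr1G022690. They had between 58.7 and 110 FPKM in mutant W2.0 spikes, against 190 to 266 FPKM in WT W2.0 spikes.

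The thresholds cut through a continuous range of values. For the drop to WT W3.5 spikes, the nearest member inside was HORVU2Hr1G093700 at -1.03 and the nearest gene outside was HORVU4Hr1G057450 at -0.95, each on the log2(FPKM + 1) scale. For the drop to mutant W2.0 spikes, HORVU5Hr1G077010 lay inside at -1.004 and HORVU3Hr1G077880 outside at -0.995. For the change within the mutant, HORVU4Hr1G079620 lay inside at a size of 0.99 and HORVU5Hr1G012900 outside at 1.01. The last of these had 11.8 FPKM in mutant W3.5 spikes, 24.7 FPKM in mutant W2.0 spikes and 9.65 FPKM in WT W3.5 spikes, against 119 FPKM in WT W2.0 spikes. For the difference between mutant and WT W3.5 spikes, HORVU2Hr1G064160 lay inside at 0.98 and HORVU2Hr1G090760 outside at 1.019.

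The deposited values are means over the 3 libraries of a group, and the 3 values behind a mean could be recovered for part of the genes. Whole read numbers of 3 libraries, each weighted by library depth and divided by the gene's length, add up to such a mean, which was printed with enough digits for a low gene to have 1 solution. The 12 libraries had depths of 63298092 to 75896357 reads. They are named A, B and C within each group by falling depth, because they could not be matched to the replicate numbers of the labels. The same letter in different groups does not pair libraries.

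All 12 values were recovered for 97 of the 171 members, or 56.7%, against 21.0% of all genes at 1 FPKM or more. For 15 further members a length was found but some group had more than 1 solution, and for 59 no single length was found. Recovery differed with level: it reached 25 of 27 members between 1 and 2 FPKM in WT W2.0 spikes, 31 of 41 between 4 and 8 FPKM and 0 of 36 at 16 FPKM or more. It was also higher for members than for all genes of the same WT W2.0 level, with 75.6% against 17.8% between 4 and 8 FPKM and 28.6% against 3.07% between 8 and 16 FPKM. Comparisons of recovered members with other recovered genes are therefore not matched for level or for the chance of recovery. The 97 recovered members had a median of 3.47 FPKM in WT W2.0 spikes, against 15.1 FPKM for the other members, and none was above 9.65 FPKM. The following results are therefore about the lower members. The median number of reads in the highest WT W2.0 library was 638. A library at 0 had no read of the gene, and 3 reads were taken as the limit that this allows. The limits over the recovered members ran from 0.0171 to 0.157 FPKM, for counting error only. They treat single reads as independent, but read numbers divisible by 4 were overrepresented, so the limits may be too low.

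In most recovered members 1 library carried the WT W2.0 peak. The highest of the 3 WT W2.0 libraries was B in 82 of the 97 members (84.5%), A in 12 and C in 3. Among the 2979 other recovered genes with a WT W2.0 mean of at least 1 FPKM, B was highest in 37.3%. The highest library held a median of 86.9% of the summed FPKM of the 3 libraries in the members, against 42.4% in the other genes. It held over 80% in 62 of the 97 members (63.9%), against 2.45% of the other genes. Of those 62 members, 51 had B and 11 had A as the highest library. The members were chosen for a high WT W2.0 mean, which a single high library raises, so these shares describe the genes chosen and are not an independent finding.

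**Figure D2:**
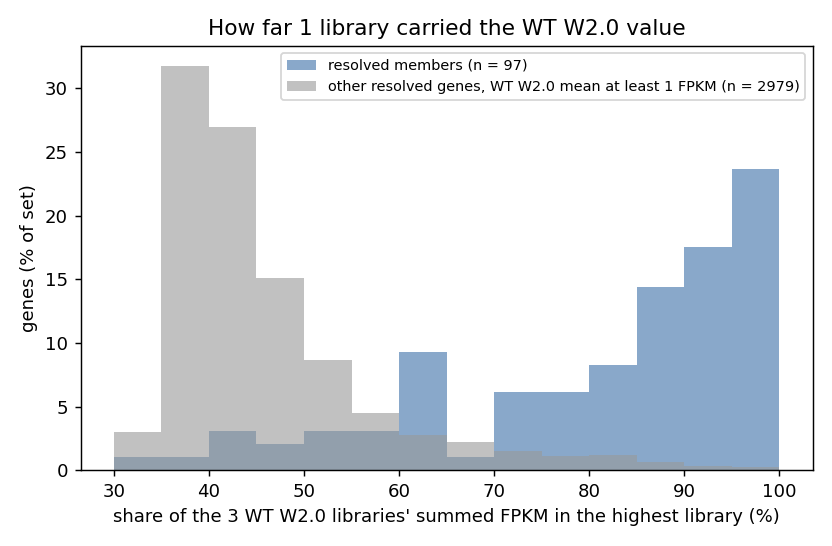
Share of the summed FPKM of the 3 WT W2.0 libraries that fell in the highest of them (x axis, %), as a percentage of genes in each set (y axis). The 97 recovered members (blue) had a median of 86.9%, and the 2979 other recovered genes with a WT W2.0 mean of at least 1 FPKM (grey) had a median of 42.4%.

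The median level of the 97 members was 6.67 FPKM in WT W2.0 library B, against 0.355 FPKM in library A and 1.09 FPKM in library C of the same group. In library B, 87 members reached 1 FPKM, against 36 in A and 50 in C. The 9 libraries of the other groups had medians between 0 and 0.373 FPKM. The median of WT W2.0 library A lay within that range, and those of libraries C and B lay above it. What sets library B apart was not tested.

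**Figure D3:**
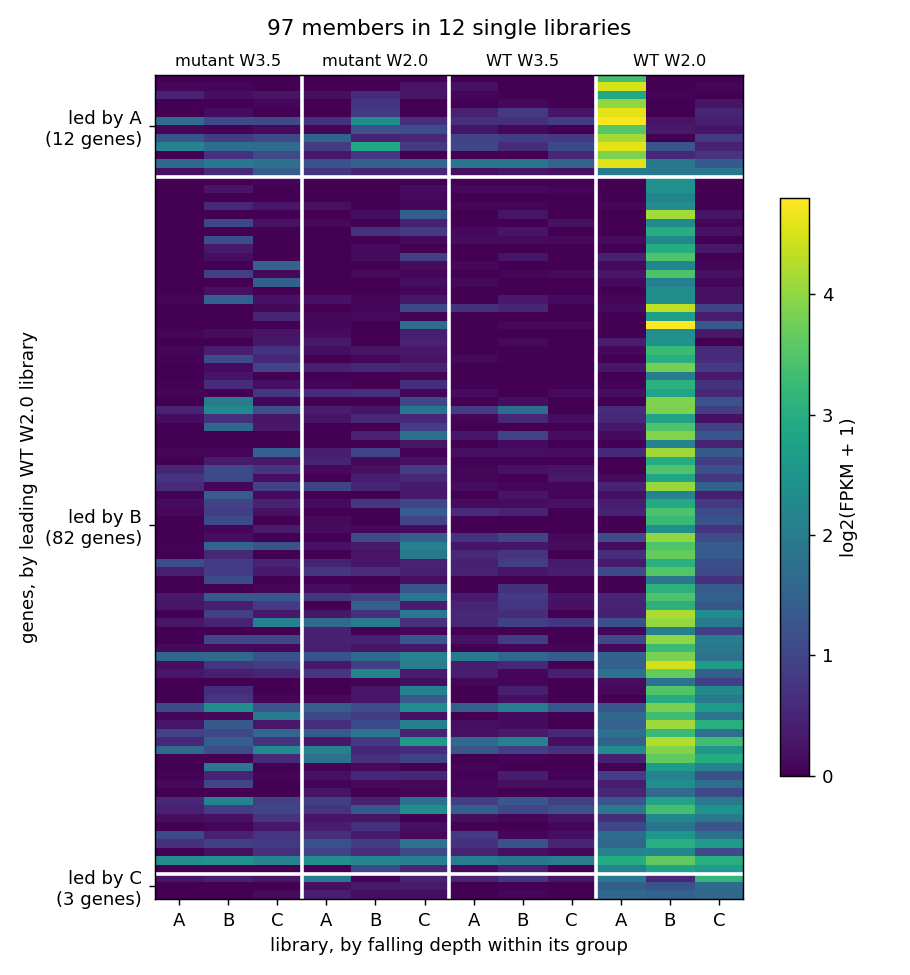
The 97 recovered members (rows, grouped by the highest WT W2.0 library and sorted by its share) in the 12 single libraries (columns), with log2(FPKM + 1) as colour. The band of high values in WT W2.0 lies in library B for 82 members, in A for 12 and in C for 3.

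HORVU1Hr1G052180, a member with one of the largest smaller drops, was an example of the genes led by library B. It was at 0 in all 3 mutant libraries at W3.5, and at 0.0645, 0 and 2.25 FPKM in libraries A, B and C of mutant W2.0 spikes. It had 0, 0.0707 and 0.0735 FPKM in WT W3.5 spikes, and 0, 26.8 and 1.56 FPKM in WT W2.0 spikes. The last 3 values stood on 0, 1602 and 84 reads. With 3 reads taken as the limit, library A at 0 allows up to 0.0487 FPKM. Library C of mutant W2.0 spikes was thus above libraries A and C of WT W2.0 spikes, and the groups overlapped. The means were 0.770 ± 1.28 FPKM in mutant W2.0 spikes and 9.46 ± 15.1 FPKM in WT W2.0 spikes (SD, n = 3 each).

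HORVU2Hr1G112580 had a similar profile, and was among the 3 members nearest the limit on the W3.5 difference. It had 0, 3.02 and 0.0440 FPKM in mutant W3.5 spikes and 0, 0 and 1.048 FPKM in mutant W2.0 spikes. It had 0, 0.131 and 0 FPKM in WT W3.5 spikes and 0, 13.6 and 1.33 FPKM in WT W2.0 spikes. In each of the 4 groups, as recovered, 1 library held most of the sum. The estimated odds that a longer gene length is the true one were 0.0310 for this gene, the highest among the members. At a longer length the split between the libraries would differ, so by these odds this gene's single-library values are the least certain. With the excess of read numbers divisible by 4 taken into account, its odds were 0.0387 and the highest were 0.0455, for HORVU4Hr1G079620. For HORVU1Hr1G052180 the odds were lower but still above those of most members. HORVU6Hr1G080530, near the limit on the WT drop, stood on 9, 300 and 0 reads in WT W2.0 spikes and on 0, 97 and 0 reads in mutant W3.5 spikes.

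Most of the 12 members led by library A were low in WT W2.0 library B, though 3 of them reached 1 FPKM there. HORVU4Hr1G075200 was nearly even, at 2.96, 2.77 and 2.72 FPKM in libraries A, B and C. The medians of the 12 members in WT W2.0 spikes were 15.98 FPKM in A, 0.115 FPKM in B and 0.336 FPKM in C. HORVU7Hr1G087690 had 0.0508, 0.0516 and 0 FPKM in mutant W3.5 spikes, and 0, 0 and 0.194 FPKM in mutant W2.0 spikes. It had 0.158, 0 and 0 FPKM in WT W3.5 spikes, and 21.9, 0 and 0.0560 FPKM in WT W2.0 spikes, on 1787, 0 and 4 reads. These values hold for the shortest length that the deposited digits allow, and the estimated odds that a longer length is the true one were 0.0277, near the highest among the members (0.0310). With the excess of read numbers divisible by 4 taken into account, the odds for this gene were 0.0405. At a longer length the split between the libraries would differ, so this gene's single-library values are less certain than most. HORVU3Hr1G007380 had 0, 0.753 and 0 FPKM in mutant W2.0 spikes, against 23.3, 0 and 0.411 FPKM in WT W2.0 spikes. In both genes, as recovered, WT W2.0 library B was at 0 and the groups overlapped. The 3 members led by library C were HORVU3Hr1G030970, HORVU3Hr1G085050 and HORVU3Hr1G010870, named here after their values were seen.

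In the genes led by WT W2.0 library B, the highest library was also unevenly spread over A, B and C in the other groups. Levels in those groups were low, with library medians between 0 and 0.392 FPKM, so a lead could rest on few reads. Of the 82 genes, 81 had reads in mutant W2.0 spikes, and library C was the highest there in 51 of them (63.0%), against 40.4% of the other recovered genes. In mutant W3.5 spikes, library A was the highest in 2 of 72 genes with reads, or 2.78%, against 31.0% of the other recovered genes. Library B was the highest of that group in 43 and library C in 27. In WT W3.5 spikes, library B was the highest in 37 of 67 genes with reads (55.2%), against 37.4% of the others. The summed level of the 82 genes was 19.4, 63.0 and 45.8 FPKM in libraries A, B and C of mutant W3.5 spikes. It was 32.4, 39.3 and 81.9 FPKM in mutant W2.0 spikes, 24.1, 32.1 and 14.5 FPKM in WT W3.5 spikes, and 57.3, 709 and 145 FPKM in WT W2.0 spikes.

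Overlap between the groups was common. In all 97 recovered members the highest WT W2.0 library was above all 9 libraries of the other groups. The second highest was above those 9 in 41 members, and all 3 were above them in 12 (12.4%). With mutant W2.0 library C left out the last count was 19, and with WT W2.0 library A left out both remaining WT W2.0 libraries were above the others in 40 members. Among all 4067 recovered genes at 1 FPKM or more, 1.06% had all 3 WT W2.0 libraries above the other 9. The choice used the means of these same libraries, so nothing is read from the higher share among the members. In 32 members at least 1 WT W2.0 library was at 0. Apart from the count of 12, no share over all recovered genes was counted beside these numbers, so nothing is read from them.

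The 12 members with no overlap, picked out after their values were seen, differed in how alike the 3 WT W2.0 libraries were. Some had even WT W2.0 libraries, and in others B was still far above A and C. HORVU3Hr1G030970 was of the even kind. It had 0, 0 and 0.0900 FPKM in mutant W3.5 spikes, 0.319, 0.134 and 0.129 FPKM in mutant W2.0 spikes, and 0, 0.0411 and 0 FPKM in WT W3.5 spikes. In WT W2.0 spikes it had 2.04, 1.83 and 2.07 FPKM, on 108, 94 and 96 reads. Its means at W2.0 were 0.194 ± 0.108 FPKM in the mutant and 1.98 ± 0.131 FPKM in WT (SD, n = 3 each).

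HORVU4Hr1G075200 had 0.650, 0.414 and 0.434 FPKM in mutant W2.0 spikes, against 2.96, 2.77 and 2.72 FPKM in WT W2.0 spikes. It had 0.147, 0.203 and 0.154 FPKM in WT W3.5 spikes, and its mutant libraries at W3.5 were spread, at 0.141, 0.484 and 1.68 FPKM. HORVU3Hr1G085050 was at 0 in all 6 libraries of W3.5, and had 0.145, 0.278 and 0.269 FPKM in mutant W2.0 spikes, against 1.75, 1.38 and 2.23 FPKM in WT W2.0 spikes. HORVU5Hr1G111570 was at 0 in all 3 mutant libraries at W3.5. It had 0, 1.11 and 0.421 FPKM in mutant W2.0 spikes and 0.10, 0.353 and 0 FPKM in WT W3.5 spikes, against 3.38, 5.79 and 5.22 FPKM in WT W2.0 spikes. In these 4 genes the nearest approach of another group was library C of mutant W3.5 spikes in HORVU4Hr1G075200.

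HORVU5Hr1G015600 was the only one of the 12 with a clear level in every library. It had 4.18, 4.4 and 3.43 FPKM in mutant W3.5 spikes and 4.09, 3.58 and 3.13 FPKM in mutant W2.0 spikes. It had 3.08, 2.63 and 3.02 FPKM in WT W3.5 spikes, against 6.81, 11.3 and 7.06 FPKM in WT W2.0 spikes. HORVU1Hr1G059610 had 0.575, 0.273 and 0.0937 FPKM in mutant W2.0 spikes, against 2.23, 4.73 and 2.46 FPKM in WT W2.0 spikes. In HORVU5Hr1G077920 the gap between the groups was narrow, with 0.902, 0.529 and 1.07 FPKM in mutant W2.0 spikes against 3.36, 3.75 and 1.17 FPKM in WT W2.0 spikes.

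In the other 5 genes, library B was the highest of WT W2.0 spikes by a wide margin or the levels were low. HORVU7Hr1G000470 had 0.695, 0.527 and 0.320 FPKM in mutant W2.0 spikes, against 1.15, 10.4 and 1.08 FPKM in WT W2.0 spikes, and library B held 82.3% of the WT sum. HORVU2Hr1G088760 had 3.39, 0.409 and 0.529 FPKM in mutant W2.0 spikes, against 4.0, 13.9 and 4.72 FPKM in WT W2.0 spikes. Its gap was narrow as well, since mutant W3.5 spikes had 2.15, 1.18 and 3.89 FPKM. HORVU4Hr1G085820, HORVU7Hr1G084920 and HORVU6Hr1G034250 had WT W2.0 means of 1.83, 1.24 and 1.70 FPKM, with library B at 3.35, 2.19 and 2.65 FPKM.

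**Figure D4:**
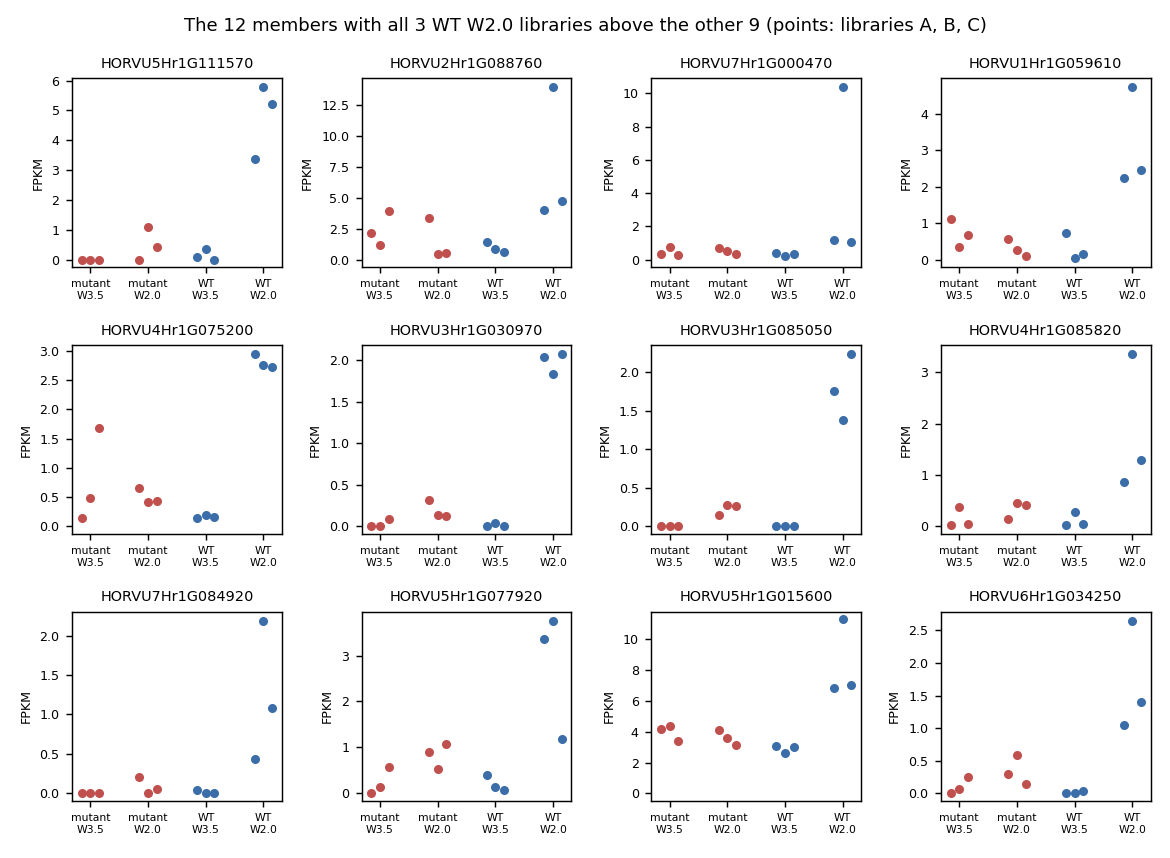
FPKM (y axis, linear, with its own range in each panel) of the 12 recovered members whose 3 WT W2.0 libraries all lay above the other 9. Points are libraries A, B and C from left to right in the mutant (red) and WT (blue) at W3.5 and W2.0; HORVU3Hr1G030970 and HORVU4Hr1G075200 have even WT W2.0 libraries, and HORVU7Hr1G000470 has library B far above the others.

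The choice of genes was then applied again to the means of the remaining libraries, with 1 library left out at a time, as a check added after the single libraries had been seen. Without WT W2.0 library B, 24 of the 97 members (24.7%) still met all 4 conditions. The members were chosen on means that include library B, so some loss of this kind is built in. Without WT W2.0 library A, 85 still met them, and without library C, 96. Leaving out 1 mutant library at W2.0 kept 78 to 89 members, and leaving out 1 library of W3.5 kept 91 to 97. With the median of the 3 libraries of each group in place of the mean, 30 of the 97 members (30.9%) met the conditions. Counted over all recovered genes, 30 genes met them without library B of WT W2.0 and 149 without library A, against 97 with all libraries.

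**Figure D5:**
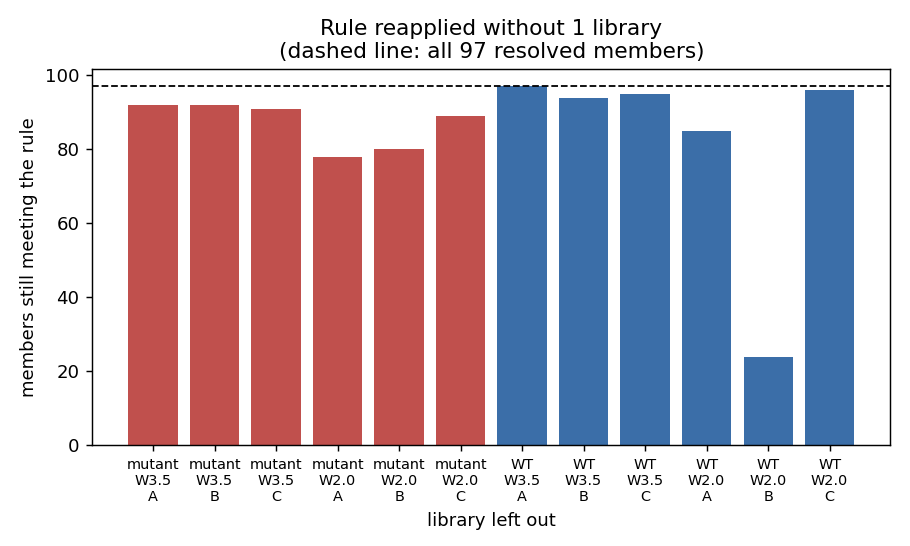
Number of the 97 recovered members that still met the 4 conditions (y axis) after 1 library was left out (x axis: genotype, stage and library), with mutant libraries in red and WT libraries in blue. The dashed line marks 97; the bar for WT W2.0 library B stands at 24 and the other 11 bars between 78 and 97.

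The sizes of the differences moved with library B as well. Over the 97 members the median difference between WT W3.5 spikes and WT W2.0 spikes was -1.75 with all libraries and -0.64 without library B, on the log2(FPKM + 1) scale. The median difference between mutant and WT W2.0 spikes was -1.39 with all libraries and -0.31 without library B. Without library B, 88 of 97 members (90.7%) were lower in WT W3.5 spikes than in WT W2.0 spikes, against 38.2% of the 3970 other recovered genes at 1 FPKM or more. In mutant W2.0 spikes, 78 members (80.4%) were lower than in WT W2.0 spikes without library B, against 39.9% of the other genes. Libraries A and C also entered the means on which the members were chosen, so nothing is read from these directions. Across all recovered genes at 1 FPKM or more, 8.68% were lower by at least 1 in WT W3.5 spikes than at W2.0 with all libraries, against 4.28% without library B. Between mutant and WT W2.0 spikes, 3.64% were lower in the mutant by at least 1 with all libraries and 1.65% without library B. These shares include the 97 members, which all had both drops by the choice. With all libraries, 353 recovered genes had the drop in WT and 148 the drop in the mutant. The falls without library B are therefore partly built in, and nothing is read from them.

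The same conditions with another group as the peak found 143 genes for mutant W2.0 spikes, 15 for mutant W3.5 spikes and 18 for WT W3.5 spikes, against the 171 for WT W2.0 spikes. Among the 51 recovered genes with their peak in mutant W2.0 spikes, the highest library of that group held a median of 58.6% of its sum. It held over 80% in 5 of them (9.80%), and all 3 libraries were above the other 9 in 8 (15.7%). No share over all recovered genes was counted beside the last number, and these genes too were chosen on the means of the same libraries. The 9 recovered genes with their peak in mutant W3.5 spikes had a median share of 97.7%, with library C above 80% in 5. The 6 recovered genes with their peak in WT W3.5 spikes had a median share of 43.2%, with 1 over 80%. Without mutant W2.0 library A, 115 recovered genes met the conditions for a peak in mutant W2.0 spikes, against the 51 with all libraries.

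Members lay on all chromosomes. Chromosome 3H held 31 members (18.1%), against 14.7% of all genes at 1 FPKM or more, and 6H held 14 (8.19%), against 11.2% of the genes. The other numbered chromosomes held 20 to 29 members each, and 4 members had identifiers of no numbered chromosome (0H). Recovered members had a median counted length of 1051 bases, against 901.5 bases in the other recovered genes.

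Some members were close neighbours. Of the 167 members on a numbered chromosome, 40 (24.0%) lay within 5 places of another member in the order of identifiers, counted among genes at 1 FPKM or more. Of the 18324 other genes on these chromosomes, 1441 (7.86%) lay that close to a member. The 40 members formed 18 groups, 14 of 2 genes and 4 of 3 genes. Where a group had at least 2 recovered members, in 11 groups, all its recovered members had the same WT W2.0 library as the highest. That library was B in 9 groups and A in 2, and B was the highest in 84.5% of all recovered members, so nothing is read from the sharing. Near-identical neighbouring copies can share reads, and how such reads were counted is not given in the sources used here.

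The group of HORVU2Hr1G090690, HORVU2Hr1G090730 and HORVU2Hr1G090740 on chromosome 2H was led by library B. HORVU2Hr1G090690 had 2.10, 2.98 and 0.597 FPKM in mutant W2.0 spikes, against 1.24, 15.5 and 2.90 FPKM in WT W2.0 spikes. HORVU2Hr1G090730 had 0.293, 0.989 and 0.0335 FPKM in mutant W2.0 spikes, against 0.443, 16.3 and 1.52 FPKM in WT W2.0 spikes. HORVU2Hr1G090740 had 0.199, 0.471 and 0.455 FPKM in mutant W2.0 spikes, against 0.464, 5.80 and 0.158 FPKM in WT W2.0 spikes. The WT and mutant libraries overlapped in all 3 genes, and WT W2.0 library B stood above them. HORVU2Hr1G090760, just outside the choice through its W3.5 difference, lies after these genes in identifier order, with 0.880 FPKM in mutant W2.0 spikes against 13.8 FPKM in WT W2.0 spikes as group means.

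The group on chromosome 7H was led by library A. HORVU7Hr1G036500 had 0.810, 6.35 and 0.75 FPKM in mutant W2.0 spikes, against 23.1, 1.43 and 0.353 FPKM in WT W2.0 spikes. HORVU7Hr1G036570 had 0.630, 4.2 and 0.585 FPKM in mutant W2.0 spikes, against 25.8, 0.198 and 0.320 FPKM in WT W2.0 spikes. In both genes library B was the highest of mutant W2.0 spikes and library A the highest of WT W2.0 spikes. The third gene, HORVU7Hr1G036540, was known by its group means only, 4.28 FPKM in mutant W2.0 spikes against 11.4 FPKM in WT W2.0 spikes.

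The remaining groups of 3 genes held members of higher level. HORVU1Hr1G076120 and HORVU1Hr1G076190 had group means of 7.16 and 11.5 FPKM in mutant W2.0 spikes, against 48.3 and 88.2 FPKM in WT W2.0 spikes. Their neighbour HORVU1Hr1G076100 was recovered, with 1.32, 1.79 and 1.95 FPKM in mutant W2.0 spikes against 22.8, 2.85 and 1.58 FPKM in WT W2.0 spikes. On chromosome 4H, HORVU4Hr1G060750, a neighbour of HORVU4Hr1G060720, had 0.236, 0.722 and 0 FPKM in mutant W2.0 spikes, against 13.5, 0.472 and 0.678 FPKM in WT W2.0 spikes. HORVU4Hr1G060760 had a group mean of 0 FPKM in mutant W2.0 spikes, against 3.19 FPKM in WT W2.0 spikes. In the 2 recovered genes, WT W2.0 library A alone was high, and the single libraries behind the means of their neighbours of higher level were not recovered.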

How the data were processed

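RNA-seq of 12 libraries (4 groups of 3) was analysed from 1 deposited table of 29014 genes, whose 4 columns hold FPKM values, each the authors' mean of 3 libraries. The unit and the averaging were read from the values, since no header states them. FastQC, HISAT2 2.0.0 and HTSeq 0.11.2 are named in the submitters' processing notes. The kit named in the labels' protocols does not mark strand, so reads from overlapping genes on opposite strands cannot be told apart. The genome build was not given in the sources used here, nor was the annotation.

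Library depths were found from the spacing of low values. For each gene, whole reads and a whole length of 50 to 10000 bases were searched. A gene was used only where the length had an expected number of chance matches of at most 0.01, odds of at most 0.05 of being a multiple, and 1 whole-read solution in each group within rounding. No likeness between libraries was assumed. The odds summed to 0.357 expected wrong lengths over the 97 members. Read numbers divisible by 4 were overrepresented, at 33.7% of values. In a separate calculation, the odds of a longer length summed to 0.349, and with these frequencies to 0.481. The scripts were tested on simulated data, which is no check of the values of a given gene.

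The members and lists were chosen with earlier results of these data known. Named were the 15 members with the largest smaller drop, the 8 highest in WT at W2.0, those nearest each threshold and up to 4 groups of neighbours. Product classes and tissue markers could not be applied, since 0 of 29014 identifiers matched the reference gene table. No test was made. Alternatives covered the pseudocount (1 in the rule), filters, thresholds, scaling and single libraries. Python 3.11.15, numpy 2.4.6, pandas 2.3.3, numba 0.67.0 and matplotlib 3.10.9 were used.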

Additional observations from a re-analysis of the deposited data

How the results depend on the processing

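The number of genes chosen depended on the settings. With a pseudocount of 0.1 it was 358, with 0.5 it was 203, and with the pseudocount of 1 it was 171. Requiring at least 5 FPKM in WT at W2.0 left 91 genes, drops of at least 1.5 left 83, and flatness limits of 0.5 left 93. Scaling the columns to a common median gave 175. The median smaller drop was 2.48 with a pseudocount of 0.1, against 1.48 with the pseudocount of 1. Genes with the peak in the mutant at W2.0 numbered 403 with a pseudocount of 0.1, against 143.

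Leaving out single libraries was applied to recovered genes. For the count with the peak in the mutant and for the members, this alternative and the median of 3 were chosen after seeing the data. Members with every remaining WT W2.0 library above all remaining others numbered 12 to 40, against 12 with all libraries. The 40 came without WT W2.0 library A, where only 2 WT W2.0 libraries had to be above the others, and 19 came without mutant W2.0 library C. Genes meeting the 4 conditions numbered 30 to 149, with 30 without WT W2.0 library B, 149 without WT W2.0 library A and 69 with the median, against 97. Genes with the peak in the mutant at W2.0 numbered 35 to 115, with 115 without mutant W2.0 library A and 60 with the median, against 51. The cause of these changes was not tested. No paired analysis was possible because the columns carry no replicate numbers and no test was made. Single-library values were not recovered for any member whose WT W2.0 mean was 16 FPKM or more, so the dependence on 1 library is unknown for these 36 genes and for the other members not recovered.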
